A study of Homo sapiens with 32 samples.

Results

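The suppressors of cytokine signalling (SOCS) are a family of 8 genes, SOCS1 to SOCS7 and CISH. All 8 were found by symbol among the 28278 genes of the count tables and by Ensembl gene among the 60199 genes of the knockdown table. The family was chosen by a measured value, the fall of SOCS1 under STAG2 loss. The difference of the members between STAG2 KO and STAG2-proficient cells is therefore given as a description with no test, and so is that of SOCS1 after STAG2 knockdown.

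RNA was measured in Ewing sarcoma cell lines, which carry the fusion transcription factor EWS::FLI1. In A673 cells, the unedited clone with a doxycycline-inducible Cas9 (iCas9) at the AAVS1 locus, called the WT clone, and the parental line served together as STAG2-proficient controls, and all KO clones were derived from the WT clone, so that they share its Cas9 transgene. Experiment 1 held 2 WT clone, 1 parental and 2 STAG2 KO libraries, and experiment 2 held 2 WT clone, 1 parental, 3 STAG2 KO, 3 EZH2 KO and 3 SUZ12 KO libraries. Experiment 3 held 1 WT clone, 1 parental and 3 STAG1 KO libraries, and experiment 4 held 3 libraries of mock-transfected A673 cells and 3 of cells transfected with siRNA against STAG2 (siSTAG2). SK-N-MC WT cells were paired with a STAG2 KO clone, and A4573 cells, which lack STAG2, with a clone in which STAG2 was restored (KI), with 1 library per arm. STAG2 and STAG1 are alternative subunits of cohesin, the ring that forms chromatin loops, and EZH2 and SUZ12 are subunits of Polycomb repressive complex 2 (PRC2), which methylates histone H3 at lysine 27.

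SOCS proteins are brakes on cytokine signalling. Cytokine receptors activate JAK kinases, which phosphorylate STAT factors, and STATs switch on genes that include SOCS1, SOCS2, SOCS3 and CISH. The products then bind the kinase or the receptor through an SH2 domain and recruit an elongin and cullin ubiquitin ligase through a SOCS box. SOCS1 and SOCS3 can also block JAK activity directly, CISH and SOCS2 act mainly on growth hormone and related receptors, and SOCS4 to SOCS7 are less well known and have been linked mostly to receptor tyrosine kinases and insulin signalling.

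Upstream sequence is shown for SOCS1, whose fall chose the family, for SOCS4, which fell in SUZ12 KO cells, and for CISH, the textbook STAT target of the family. The windows hold the 250 bases before the annotated start, 5′ to 3′ on the gene's strand, from RefSeq on GRCh38.p14. SOCS1 is on the minus strand at chr16:11256205-11256454, SOCS4 on the plus strand at chr14:55026986-55027235 and CISH on the minus strand at chr3:50611775-50612024. Capitals mark TTCNNNGAA, the STAT motif, on either strand.
SOCS1: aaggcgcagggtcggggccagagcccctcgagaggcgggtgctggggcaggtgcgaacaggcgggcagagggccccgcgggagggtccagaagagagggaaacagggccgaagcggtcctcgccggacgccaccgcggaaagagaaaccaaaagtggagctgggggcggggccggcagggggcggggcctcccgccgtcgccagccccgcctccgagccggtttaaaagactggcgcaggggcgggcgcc
SOCS4: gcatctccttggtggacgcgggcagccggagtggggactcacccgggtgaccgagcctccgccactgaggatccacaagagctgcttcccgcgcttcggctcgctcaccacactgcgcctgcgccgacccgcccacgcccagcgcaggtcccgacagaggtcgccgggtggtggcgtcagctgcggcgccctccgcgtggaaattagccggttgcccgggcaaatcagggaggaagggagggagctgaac
CISH: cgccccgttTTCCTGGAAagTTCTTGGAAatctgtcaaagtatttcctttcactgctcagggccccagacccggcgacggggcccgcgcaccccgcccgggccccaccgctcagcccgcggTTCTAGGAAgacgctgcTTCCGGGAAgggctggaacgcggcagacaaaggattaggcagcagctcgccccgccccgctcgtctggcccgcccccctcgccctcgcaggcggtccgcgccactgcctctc
The CISH window held 4 matches of TTCNNNGAA, beginning 241, 230, 129 and 112 bases before the start, and the SOCS1 and SOCS4 windows held 0. Of 35116 such windows in the genome, 6.57% held at least 1. The windows of SOCS6 and both RefSeq starts of SOCS3 also held 0, and SOCS2, SOCS5 and SOCS7 were not matched. The SOCS3 windows, chr17:78360926-78361175 and chr17:78359668-78359917, did not border the gene start used elsewhere here, chr17:78360077 on the minus strand. The bases directly before that start were not scanned, so nothing is read about a STAT motif there. GGAA, the core bound by ETS factors, was present on either strand in all 6 member windows, as in 92.7% of all windows, and it overlaps the STAT motif where that ends in GGAA. GGAAGGAA was in 0 of the 6 and in 3.06% of all windows. A match is a description of letters and not a bound site.

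Library totals were 15734628 to 20663679 counts over the 22 A673 clone libraries, 29322507 to 32261248 over the 4 isogenic libraries and 6852340 to 8184632 recovered reads over the 6 knockdown libraries. Levels are counts scaled to library size with TMM factors (normalized CPM), or normalized reads for the knockdown. STAG2 ran from 255 to 358 normalized CPM in the 6 proficient libraries of experiments 1 and 2 and from 42.2 to 68.9 in 4 of the 5 STAG2 KO libraries, whereas the KO library 24 of experiment 1 kept 183 normalized CPM. Library names in experiment 1 (5, 24, Ra, Rb) and of the STAG1 KO group (g2n1, g2n5, g2n7) are column headings. They match no clone or replicate number of the labels of their own experiment and place a library in its group only. The number 5 also names a STAG2 KO clone of experiment 2, and whether both libraries came from the same clone is not given. The 5 STAG2 KO libraries may therefore hold fewer than 5 clones. EZH2 fell by 1.98 on the log2 scale in EZH2 KO cells (SE 0.203, edgeR adjusted p = 0.000137) and SUZ12 fell by 1.90 in SUZ12 KO cells (SE 0.233, edgeR adjusted p = 0.000299). STAG1 was at 61.1, 14.99 and 33.0 normalized CPM in the STAG1 KO libraries against 57.4 and 69.2 in their controls, so that STAG1 RNA did not mark all of them. STAG2 fell by 2.72 after knockdown (SE 0.0854, limma adjusted p = 4.01e-18). STAG2 RNA remained in SK-N-MC KO cells at 184 against 293 normalized CPM. Of 7 Ewing sarcoma markers, 6 had counts above 0 in all 26 count libraries. Of these, CCK went as low as 0.164 normalized CPM in A673 libraries and 0.0955 in A4573 KI cells. CD99 was listed at 0 in all count libraries and at 3720 or more normalized reads in the knockdown. The blood cell markers summed to at most 2.25 normalized CPM in any KO group of A673 cells.

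In STAG2-proficient A673 cells all members were transcribed. Per kilobase of the reference transcript (MANE Select), SOCS4 was highest at 9.03 ± 0.712 normalized CPM per kb (SD, n = 8 libraries of experiments 1 to 3). SOCS5 followed at 7.21 ± 1.12 and SOCS6 at 6.95 ± 0.731. SOCS7 at 3.70 ± 0.845, SOCS3 at 3.39 ± 1.70 and SOCS1 at 3.12 ± 0.94 normalized CPM per kb had lower means. SOCS2 lay at 2.01 ± 0.454 and CISH was lowest at 1.01 ± 0.371. The ranges of neighbours in this order overlapped, apart from SOCS6 and SOCS7. The range of SOCS3 reached 6.95 and so overlapped those of SOCS5, from 5.84, and SOCS6, from 6.02. SOCS4 to SOCS6 thus had more RNA per length on average than the STAT-induced SOCS1, SOCS2, SOCS3 and CISH. SOCS7, also among the less studied members, was close to SOCS3. In SK-N-MC WT cells SOCS4 was also highest, at 22.1 normalized CPM per kb, and SOCS1 was lowest at 1.32. In A4573 KI cells SOCS4 was at 10.3 and SOCS1 again lowest at 1.05.

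SOCS1, an inhibitor of JAK1, JAK2 and TYK2 that limits interferon signalling, is encoded on the minus strand of chromosome 16 (hg38, GENCODE 44, chr16:11254417-11256204). In experiment 1 it was at 3.19 and 3.27 normalized CPM in the WT clone and 2.44 in parental cells, against 0.52 and 0.45 in STAG2 KO libraries 5 and 24. In experiment 2 it was at 5.49 and 3.63 in the WT clone and 2.83 in parental cells, against 0.63, 0.37 and 0.28 in STAG2 KO clones 3, 5 and 2. All 5 KO libraries lay below all 6 proficient libraries, which is the pattern for which the family was chosen. The means were 0.45 ± 0.135 (SD, n = 5) and 3.48 ± 1.07 (SD, n = 6), a ratio of 7.73. The fitted log2 fold change was -2.90 (SE 0.321), with -2.59 in experiment 1 alone and -3.16 in experiment 2 alone. The KO values rest on 5 to 12 counts per library, and 12.4% of the 13574 genes fitted were called in this comparison (6.67% higher and 5.76% lower), from which nothing is read about the members. KO library 24, which kept most STAG2 RNA, had a SOCS1 level within the range of the other KO libraries. In such bulk samples, fewer cells with SOCS1 RNA and less SOCS1 RNA per cell cannot be told apart.

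**Figure D1:**
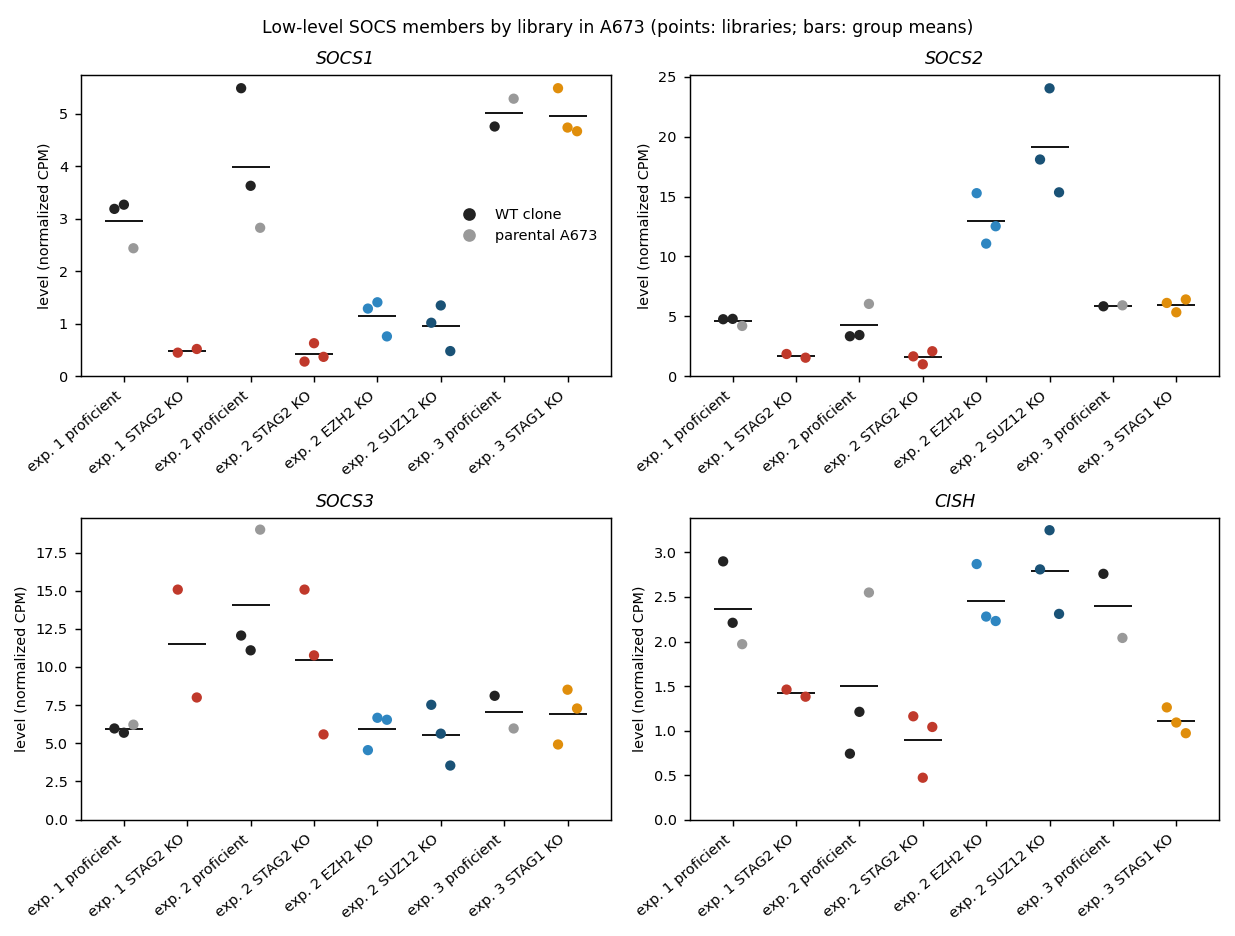
Levels of SOCS1, SOCS2, SOCS3 and CISH in normalized CPM (y axis, linear from 0) in each A673 clone library by experiment and genotype (x axis). Points are libraries, black for the WT clone, grey for parental cells and coloured for KO clones, and bars are group means; SOCS1 lies under 0.7 normalized CPM in all 5 STAG2 KO libraries, and SOCS2 rises above 11 in all 6 EZH2 KO and SUZ12 KO libraries.

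SOCS2, a brake on growth hormone signalling, is encoded on chromosome 12 (chr12:93569814-93583487, plus strand). It had a level of 4.76, 4.79 and 4.20 normalized CPM in the proficient libraries of experiment 1 and of 1.55 and 1.86 in STAG2 KO libraries 5 and 24. In experiment 2 it had 3.34, 3.44 and 6.04 in proficient cells and 1, 2.09 and 1.66 in STAG2 KO clones 3, 5 and 2. The 5 KO libraries again lay below the 6 proficient ones, with a fitted log2 fold change of -1.38 (SE 0.275). CISH, on chromosome 3 (chr3:50606489-50611774, minus strand), had a median of 2.09 normalized CPM in proficient cells, from 0.74 to 2.90, and of 1.16 in STAG2 KO cells, from 0.47 to 1.46. These groups overlapped over both experiments, while in experiment 1 the KO libraries, at 1.38 and 1.46, lay below the 3 controls at 1.97 to 2.90. The log2 fold change was -0.70 (SE 0.363), and -0.42 without the parental library of experiment 2.

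The remaining members did not share this pattern in STAG2 KO cells. SOCS3, which restrains gp130 receptors, was at 5.69 to 6.22 normalized CPM in the proficient libraries of experiment 1 and at 8 and 15.1 in their KO libraries, whereas in experiment 2 it was at 11.1 to 19.0 in proficient cells and at 5.58 to 15.1 in KO cells. Its log2 fold change was 0.95 (SE 0.306) in experiment 1 alone and -0.38 (SE 0.390) in experiment 2 alone. SOCS7 also changed sign between the experiments, at -0.49 (SE 0.128) in experiment 1 and 0.41 (SE 0.238) in experiment 2. The difference between experiments was not tested. SOCS4, SOCS5 and SOCS6 had log2 fold changes of 0.29, 0.36 and 0.28 over both experiments. Pooled over the experiments their groups overlapped, but within experiment 1 both KO libraries lay above the 3 controls for SOCS4 (63.5 and 66.3 against 58.6 to 60.1 normalized CPM) and SOCS5 (34.1 and 43.9 against 27.8 to 30.4). For SOCS6 the 3 KO libraries lay above the controls in experiment 2 (45.3 to 47 against 34.3 to 37.0), and its log2 fold change was 0.04 (SE 0.113) in experiment 1 and 0.44 (SE 0.12) in experiment 2 alone.

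In EZH2 KO and SUZ12 KO cells the members moved apart from each other. The EZH2 and SUZ12 comparisons share the 3 proficient libraries of experiment 2 with each other and with the STAG2 KO comparison, so their values are not independent of the choice of SOCS1. In EZH2 KO cells 2 of 8 members passed an edgeR adjusted p of 0.05, where 15.7% of all 15130 genes tested did so (12% higher and 3.69% lower). In SUZ12 KO cells 4 of 8 members passed, where 20.6% of all genes did so (14.7% higher and 5.87% lower). SOCS1 is among those passing in both arms, and its calls are given as a description only.

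SOCS2 rose in both. It was at 15.3, 11.1 and 12.5 normalized CPM in EZH2 KO libraries 1 to 3 and at 18.1, 24.03 and 15.3 in SUZ12 KO libraries 1 to 3, against 3.34, 3.44 and 6.04 in the controls. All 6 KO libraries lay above the 3 controls. The log2 fold change was 1.68 in EZH2 KO cells (SE 0.333, edgeR adjusted p = 0.00594) and 2.23 in SUZ12 KO cells (SE 0.337, edgeR adjusted p = 0.000959). Both calls held under each library left out in turn. SOCS2 was therefore lower than controls in STAG2 KO cells and higher in PRC2 KO cells of the same experiment. SOCS2-AS1, an antisense RNA on the minus strand whose exons share 277 bases with those of SOCS2, was at 0.11 to 0.28 normalized CPM in these controls, at 0.54 to 1.05 in EZH2 KO cells and at 0.54 to 1.62 in SUZ12 KO cells. Its log2 fold change was 1.98 in EZH2 KO cells (SE 0.77, edgeR adjusted p = 0.108) and 2.37 in SUZ12 KO cells (SE 0.764, edgeR adjusted p = 0.0472). The SUZ12 KO call of SOCS2-AS1 was lost when any 1 of the control, EZH2 KO or first 2 SUZ12 KO libraries was left out, with an edgeR adjusted p of up to 0.197. Reads of SOCS2 and SOCS2-AS1 in the shared bases cannot be told apart, since the libraries were non-directional.

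SOCS1 was lower in both PRC2 KO arms, with its controls shared with the contrast that chose it. It was at 1.29, 1.41 and 0.76 normalized CPM in EZH2 KO libraries 1 to 3 and at 1.02, 1.35 and 0.48 in SUZ12 KO libraries 1 to 3, against 5.49, 3.63 and 2.83 in the controls. No library of either arm reached the lowest control. The log2 fold change was -1.69 in EZH2 KO cells (SE 0.475, edgeR adjusted p = 0.0329) and -1.98 in SUZ12 KO cells (SE 0.481, edgeR adjusted p = 0.013). Since these controls also served the choice of SOCS1, its adjusted p-values here describe the fit and are not read as support. The EZH2 KO call was lost when either WT clone library, any EZH2 KO library or SUZ12 KO library 1 was left out, with edgeR adjusted p from 0.0516 to 0.134, and that in SUZ12 KO cells when WT clone library 1 was left out (edgeR adjusted p = 0.0627).

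SOCS3, on chromosome 17 (chr17:78356778-78360077, minus strand), was at 12.1, 11.1 and 19.0 normalized CPM in the controls, at 4.55, 6.67 and 6.54 in EZH2 KO cells and at 7.52, 5.63 and 3.54 in SUZ12 KO cells. It fell in SUZ12 KO cells by 1.27 on the log2 scale (SE 0.392, edgeR adjusted p = 0.0398). In EZH2 KO cells its log2 fold change of -1.16 did not pass in edgeR (SE 0.391, adjusted p = 0.0671) and passed in DESeq2 (adjusted p = 0.0209). The SUZ12 KO call was lost without any 1 of the controls, SUZ12 KO library 2 or 3, or STAG2 KO clone 3. Without the parental library, the highest control, the SUZ12 KO value was -0.998 (edgeR adjusted p = 0.141). SOCS4, on chromosome 14 (chr14:55027230-55049489, plus strand), was at 55.4, 66.6 and 69.5 in controls and at 32.0, 25.0 and 47.9 normalized CPM in SUZ12 KO cells, and fell there by 0.80 on the log2 scale (SE 0.233, edgeR adjusted p = 0.0313). Its call was lost without WT clone library 2, the parental library or SUZ12 KO library 1 or 2, with an edgeR adjusted p of 0.0816 to 0.122. In EZH2 KO cells it was at 42.8, 35.7 and 45.5, a log2 fold change of -0.54 (SE 0.232, edgeR adjusted p = 0.14).

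SOCS5, SOCS6, SOCS7 and CISH passed the test in neither PRC2 KO arm. Their log2 fold changes were -0.19, -0.18, 0.34 and 0.79 in EZH2 KO cells and -0.18, -0.22, 0.18 and 0.96 in SUZ12 KO cells, and the 95% interval for CISH ran from -0.24 to 1.83 and from -0.08 to 2. EZH2 KO and SUZ12 KO cells were then compared directly, without controls. Of 8 members, 0 passed in edgeR, 0 had an unadjusted p under 0.05 and 0 passed in DESeq2, while 0.00661% of all genes, which is EZH2 alone, passed in edgeR. The targeted gene SUZ12, 1.73 higher in EZH2 KO cells on the log2 scale, did not pass (edgeR adjusted p = 0.0663). The absence of calls therefore does not show that the members were alike in the 2 arms. The largest member difference was that of SOCS2, 0.55 lower in EZH2 KO than in SUZ12 KO cells on the log2 scale, with a 95% interval from -1.25 to 0.15. MAPKAPK3, a kinase gene on the opposite strand whose exons share 218 bases with those of CISH, had log2 fold changes of 0.68 in EZH2 KO cells (edgeR adjusted p = 0.0503) and 0.86 in SUZ12 KO cells (edgeR adjusted p = 0.0151). LINC01118, which shares 160 exonic bases with SOCS5, was not among the genes tested.

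**Figure D2:**
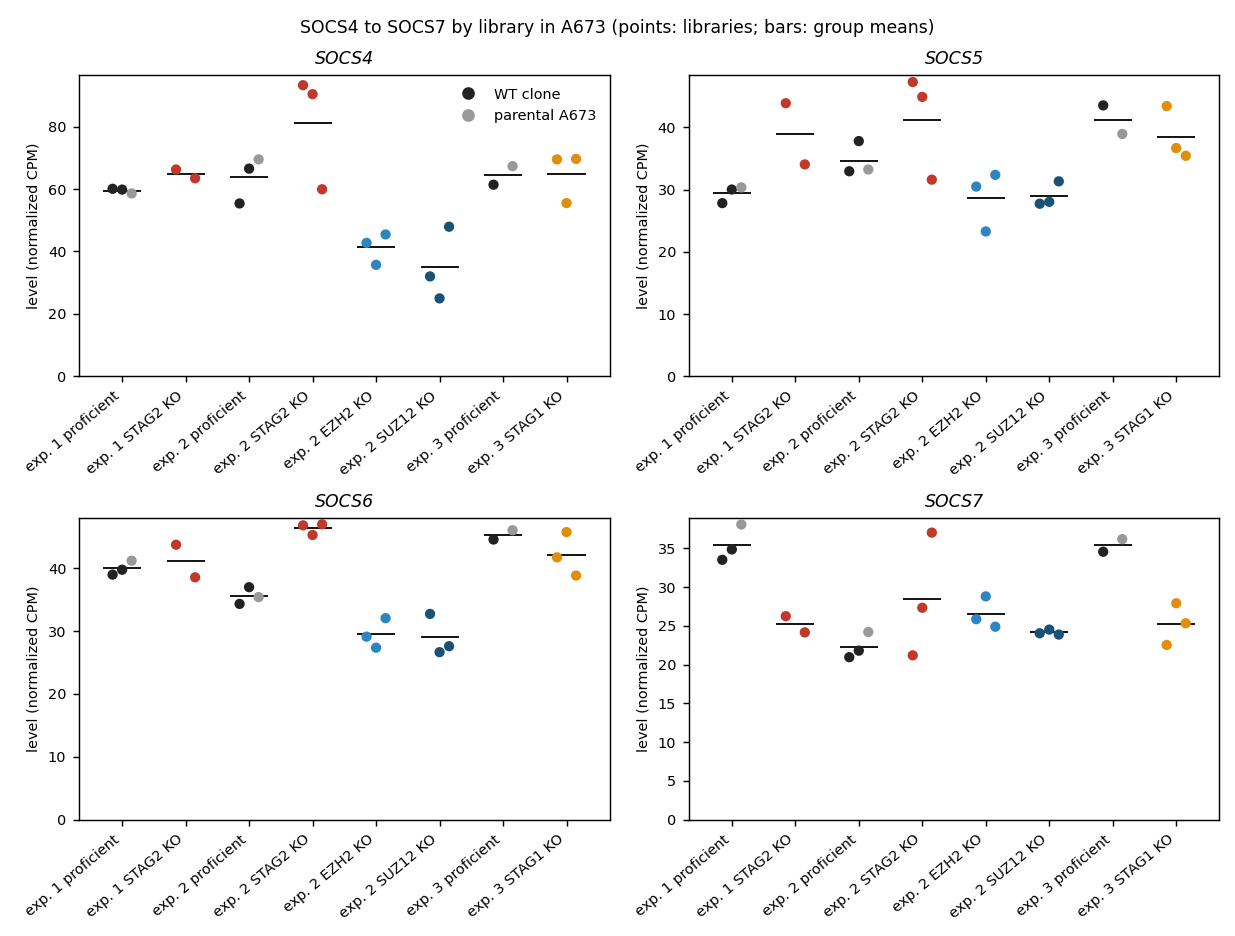
Levels of SOCS4, SOCS5, SOCS6 and SOCS7 in normalized CPM (y axis, linear from 0) in each A673 clone library by experiment and genotype (x axis), with points for libraries (black WT clone, grey parental, coloured KO) and bars for group means. SOCS4 lies between 25.0 and 47.9 in the 3 SUZ12 KO libraries and between 55.4 and 69.5 in their 3 controls.

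**Figure D3:**
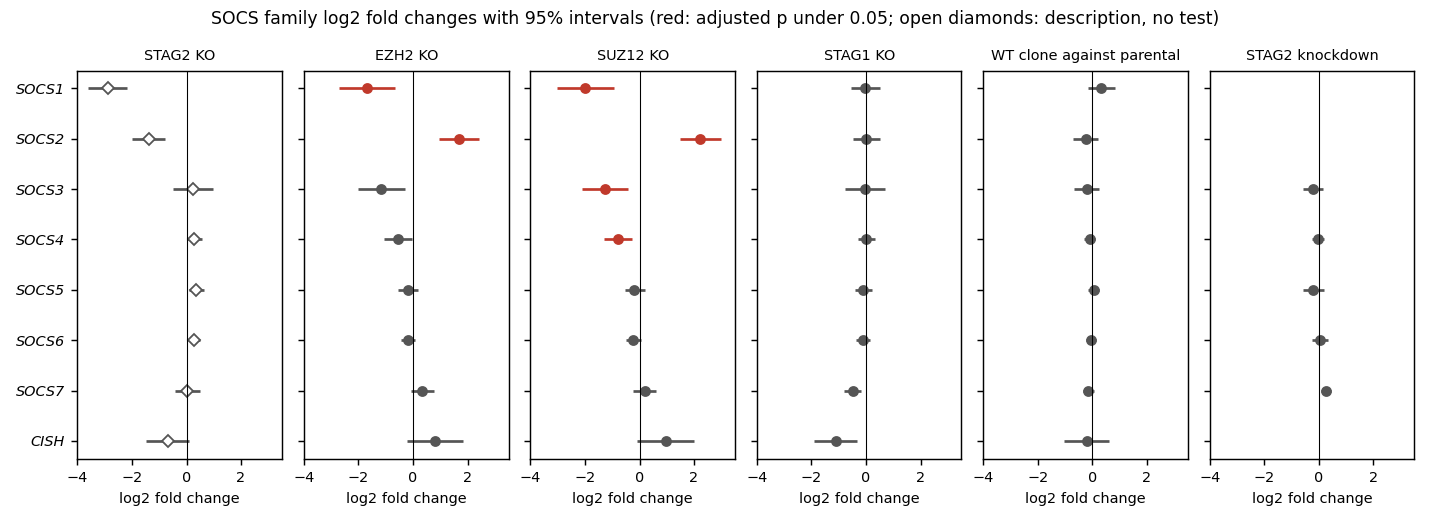
Log2 fold changes (x axis) of the 8 members (y axis) in 6 comparisons, with bars for 95% intervals of the fit. Red marks an adjusted p under 0.05, open diamonds mark the STAG2 KO comparison that chose the family and has no test, and SOCS1, SOCS2 and CISH have no point after knockdown because their mean value was under 10; SOCS2 points in opposite directions in STAG2 KO and in PRC2 KO cells.

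STAG1 KO left the level of SOCS1 near that of its controls, at 5.49, 4.74 and 4.67 normalized CPM in STAG1 KO libraries g2n1, g2n5 and g2n7 against 4.76 in the WT clone and 5.29 in parental cells. The groups overlapped, and the log2 fold change was -0.02, with a 95% interval from -0.56 to 0.52. SOCS2 had a log2 fold change of 0.02, with an interval from -0.49 to 0.52. The difference from the STAG2 KO effect was not tested. Of 8 members 0 passed an edgeR adjusted p of 0.05 in STAG1 KO cells, where 5.27% of all 14373 genes did so (2.77% higher and 2.5% lower). The unadjusted p was under 0.05 for 2 members, and 1, SOCS7, passed in DESeq2 (adjusted p = 0.0388). CISH was at 1.26, 1.09 and 0.97 against 2.76 and 2.04 normalized CPM in controls, and its log2 fold change was -1.11 (SE 0.323, edgeR adjusted p = 0.102). SOCS7 was at 22.5, 27.9 and 25.3 against 34.6 and 36.2, with a log2 fold change of -0.49 (SE 0.127, edgeR adjusted p = 0.0828). Library g2n1 of the STAG1 KO group kept STAG1 RNA at the level of its controls, and without it the log2 fold change of SOCS1 was -0.086. Over all genes, edgeR called 0 when either control library was left out.

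The WT clone and parental cells were compared over 8 libraries of experiments 1 to 3. Of 8 members 0 passed in edgeR, 0 had an unadjusted p under 0.05 and 0 passed in DESeq2, while 2.72% of all 14167 genes passed in edgeR. SOCS1 was 0.33 higher in the WT clone on the log2 scale, with a 95% interval from -0.16 to 0.82, and SOCS2 differed by -0.25, with an interval from -0.73 to 0.22.

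After transient knockdown of STAG2, SOCS1 was at 19.1, 10.8 and 16.7 normalized reads in mock libraries 1, 2 and 3 and at 1.11, 0.93 and 8.69 in siSTAG2 libraries 1, 2 and 3. These values stand for 20, 11 and 16 recovered reads against 1, 1 and 9. All siSTAG2 values of SOCS1 lay below all mock values, but library 3 was close to the lowest mock library. The means were 15.5 ± 4.23 and 3.58 ± 4.43 normalized reads (SD, n = 3 each), which is given as a description. SOCS2 was at 13.3, 7.87 and 11.5 in mock and at 2.22, 3.71 and 7.73 in siSTAG2 libraries 1, 2 and 3. Mock library 2 and siSTAG2 library 3 each held 8 recovered reads, so the values of these libraries differed by the scaling alone. Its mean value was under the minimum of 10, and without that minimum its log2 difference on the log2(value + 1) scale was -1.19 (SE 0.514, limma adjusted p = 0.131). CISH was at 12.4, 10.8 and 5.21 against 6.66, 5.56 and 14.5, and the groups overlapped. SOCS2-AS1 had 2, 2 and 5 reads in mock libraries 1, 2 and 3 and 0 in each siSTAG2 library.

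Of the 8 members, 5 passed the minimum in the knockdown, and of these 0 passed a limma adjusted p of 0.05, while 20.5% of all 12060 genes did so (9.54% higher and 11% lower). The unadjusted p was under 0.05 for 1 of them, SOCS7, and recovered reads tested with edgeR also gave 0 calls. SOCS7 was at 214, 212 and 203 normalized reads in mock libraries 1, 2 and 3 and at 235, 268 and 250 in siSTAG2 libraries 1, 2 and 3. Its log2 fold change on the log2(value + 1) scale was 0.26 (SE 0.0947, limma adjusted p = 0.0528). SOCS3, SOCS4, SOCS5 and SOCS6 had log2 fold changes of -0.21, -0.04, -0.21 and 0.05 with overlapping groups, and the 95% interval of SOCS4 ran from -0.25 to 0.18.

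**Figure D4:**
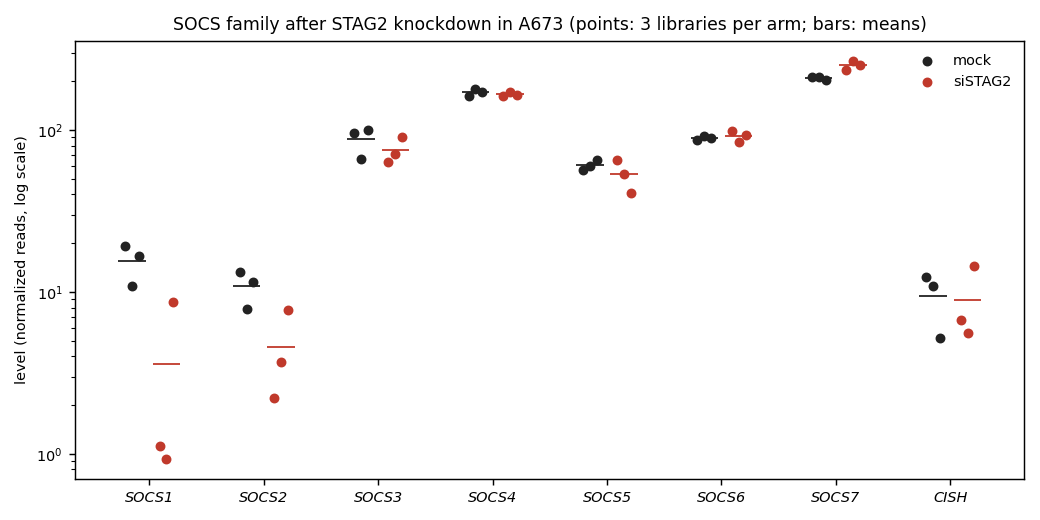
Levels of the 8 members (x axis) in normalized reads (y axis, log scale) in the 3 mock libraries (black) and 3 siSTAG2 libraries (red) of A673 cells, with bars for means. SOCS1 is lower and SOCS7 is higher in all 3 siSTAG2 libraries, and the lowest mock and highest siSTAG2 values of SOCS2 nearly coincide at 7.87 and 7.73.

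In the isogenic pairs SOCS1 and SOCS2 were lower without STAG2 in SK-N-MC but not beyond counting error in A4573 cells, while SOCS4 was lower without STAG2 in both. There was 1 library per arm, so no test was made, and the intervals are exact 95% binomial (Clopper-Pearson) intervals that cover counting error only. In SK-N-MC cells SOCS1 was at 1.64 normalized CPM in WT cells (interval 1.23 to 2.14, 54 counts) and at 0.295 in STAG2 KO cells (0.135 to 0.559, 9 counts). SOCS2 was at 9.59 in WT cells (8.56 to 10.7) and at 0.819 in KO cells (0.53 to 1.21), a ratio of 11.7. CISH was at 4.86 and 1.38, SOCS3 at 13.1 and 6.22 and SOCS4 at 153 and 54.0 normalized CPM in WT and KO cells. These 5 members were lower in the KO library by 2-fold or more, with intervals apart. How many of all genes had intervals apart was not counted, so nothing is read from that number. The log2 differences, KO minus WT with a prior count of 2, were -2.25, -3.45, -1.77, -1.07 and -1.50 for SOCS1, SOCS2, CISH, SOCS3 and SOCS4, where 11.4% of the 16413 genes with at least 10 counts were lower by 2-fold or more. SOCS5, SOCS6 and SOCS7 were higher in the KO library, with differences of 0.16, 0.16 and 0.31, all under 2-fold. Of the same genes, 62.9%, 62.4% and 71.6% had a lower difference than these members, and 10.2% were higher by 2-fold or more. SOCS2-AS1 had 16 counts in WT and 1 count in KO cells, with an interval of the log2 ratio from -9.28 to -1.2.

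In A4573 cells fewer members differed. SOCS1 was at 1.20 normalized CPM in WT cells, which lack STAG2 (0.837 to 1.65, 36 counts), and at 1.31 in KI cells (0.937 to 1.77, 41 counts), and the interval of their log2 ratio ran from -0.81 to 0.55. SOCS2 was at 2.46 and 2.77, CISH at 1.99 and 2.26 and SOCS3 at 4.28 and 4.33. SOCS7 was at 38.3 in WT and 44.9 in KI cells, a log2 difference of -0.23, and 37.6% of genes had a lower difference. SOCS4 was at 34.9 in WT and 70.8 in KI cells, a log2 difference of -1.02, where 14.1% of the 16124 genes were lower by 2-fold or more without STAG2. SOCS4 was therefore lower without STAG2 in both pairs. In A673 STAG2 KO cells its log2 fold change, given as a description, was 0.29 (SE 0.124). It was 0.13 (SE 0.0913) in experiment 1 alone and 0.39 (SE 0.186) in experiment 2 alone, and the pooled groups overlapped. The difference between the lines was not tested. STAG2 itself was at 34.1 normalized CPM in A4573 WT and 86.9 in KI cells. Of the blood cell markers, PTPRC, a phosphatase of JAK and Src kinases, was at 3 normalized CPM in SK-N-MC WT and 58.2 in SK-N-MC KO cells, while the other 5 were at 0.72 or lower in all 4 isogenic libraries. The part of PTPRC in the results was not tested.

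**Figure D5:**
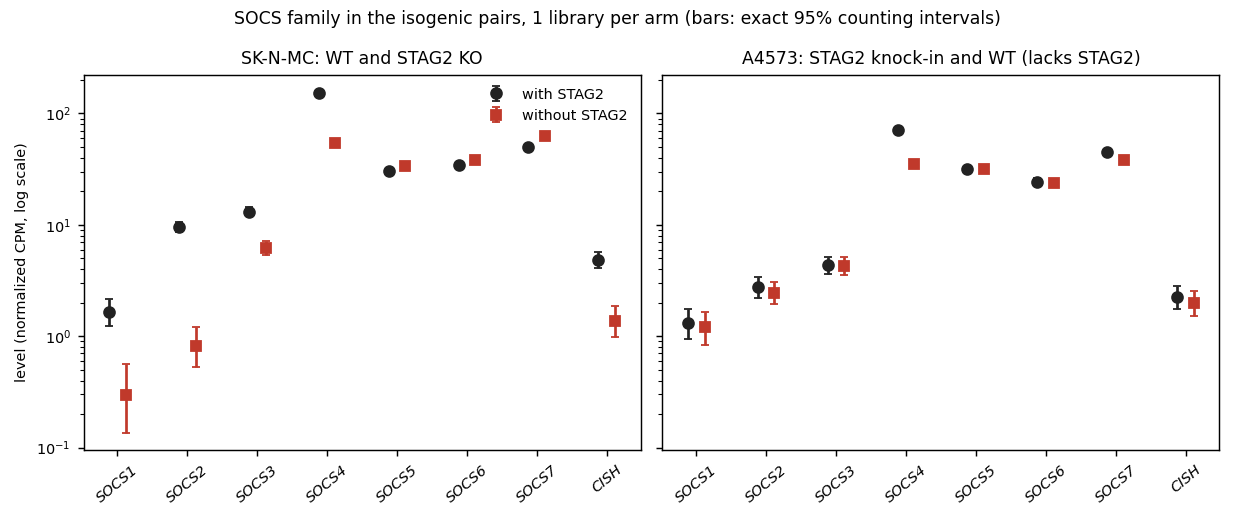
Levels of the 8 members (x axis) in normalized CPM (y axis, log scale) in SK-N-MC and A4573 cells with STAG2 (black circles) and without STAG2 (red squares), 1 library per arm, with exact 95% counting intervals as bars. The intervals of SOCS1, SOCS2, SOCS3, SOCS4, SOCS7 and CISH are apart in SK-N-MC cells, and in A4573 cells those of SOCS4 and SOCS7 are.

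The surroundings of SOCS1 were examined next. The gene lies within the span of RMI2, a gene for a subunit of the BLM helicase complex, on the opposite strand, and their exons share 0 bases. RMI2 fell by 0.51 on the log2 scale in STAG2 KO cells (SE 0.112, edgeR adjusted p = 0.0132) and by 0.40 after knockdown (SE 0.0873, limma adjusted p = 0.00154). In experiment 2 alone its value was -0.49 (edgeR adjusted p = 0.158). It did not pass in EZH2 KO, SUZ12 KO or STAG1 KO cells, with log2 fold changes of -0.26, -0.34 and -0.11. The nearest tested protein-coding genes beside it were DEXI and CLEC16A at lower and LITAF and SNN at higher coordinates. Their log2 fold changes in STAG2 KO cells were -0.13, 0.16, 0.43 and 0.04, and 0 of these 4 passed in edgeR. The LITAF value had an SE of 1.07 and ran from -1.396 to 1.017 with 1 library left out, so its direction is not settled. LITAF, which encodes a lysosomal membrane protein, rose by 4.52 in EZH2 KO cells (SE 1.09, edgeR adjusted p = 0.0171) and by 4.71 in SUZ12 KO cells (SE 1.10, edgeR adjusted p = 0.011), whereas CLEC16A fell by 0.56 (edgeR adjusted p = 0.0131) and by 0.48 (edgeR adjusted p = 0.0205). Without WT clone library 1, all 4 of these calls were lost (edgeR adjusted p of 0.0825 and 0.0569 for LITAF, and 0.0601 and 0.08 for CLEC16A in EZH2 KO and SUZ12 KO cells). Those of LITAF were also lost without WT clone library 2, and that of CLEC16A in SUZ12 KO cells without SUZ12 KO library 1 or 2. After knockdown LITAF rose by 0.28 (SE 0.0875, limma adjusted p = 0.0231), a call lost without mock library 1 or 3 or siSTAG2 library 2 (limma adjusted p up to 0.181).

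The genes whose pattern was most like that of SOCS1 were ranked by Pearson correlation of log2 CPM, after subtraction of the mean of the controls of the same experiment, over the 22 A673 clone libraries. These libraries share experiments, controls and clone genotypes, and the values are descriptions. Of the 11039 genes averaging 5 normalized CPM or more, the highest were ATP6AP1 (r = 0.94), TSPAN9 (0.931), NEDD9 (0.921), FBLN5 (0.915) and PDGFRB (0.91). The lowest were RNF182 (-0.947) and FAM241A (-0.943). No other member was near these values, with r from -0.338 for SOCS7 to 0.289 for SOCS3, and SOCS2 at 0.072.

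Other genes of the pathway were followed as lists. In STAG2 KO cells, of 17 tested cytokine receptor chains 3 were higher and 2 lower, with a median log2 fold change of 0.42 against 0.04 over all genes. IL4R, a chain of the interleukin-4 receptor, fell by 2.48 (SE 0.382, edgeR adjusted p = 0.00197). KIT, a receptor tyrosine kinase, rose by 1.82 (SE 0.267, edgeR adjusted p = 0.00144; 0.0563 in experiment 2 alone) among the SOCS substrates and partners, of which 2 of 12 were higher and 3 lower. Of 3 tested JAK kinases 1 was higher and 1 lower, of 5 STAT factors 0 passed, and of 18 STAT-induced genes 1 was higher and 2 lower. Chosen after their values were seen, JAK2 rose by 0.85 and JAK1 fell by 0.46 in STAG2 KO cells (edgeR adjusted p = 0.00915 and 0.0171), and of the STAT-induced genes BCL6 rose by 1.07 while PIM1 and IRF1 fell by 1.30 and 1.16 (edgeR adjusted p = 0.00541, 0.00514 and 0.0445). The SOCS box ligase machinery and the other JAK-STAT brakes had 0 of 10 and 0 of 11 calls, and other SOCS box proteins had 2 of 15, both higher, where 12.4% of all genes were called. These counts depended on the libraries. Without WT clone library 1 of experiment 2 and without STAG2 KO clone 5 of experiment 2, respectively, the number called was 3 and 7 for receptor chains, 2 and 9 for STAT-induced genes, 1 and 6 for substrates and partners, and 0 and 4 for other SOCS box proteins, whose count of 2 was kept under none of the 11 libraries left out. In experiment 1 alone and experiment 2 alone the other SOCS box proteins called were 4 and 0.

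In PRC2 KO cells more receptor chains were called higher than lower. Of 20 tested, 8 were higher and 1 lower in EZH2 KO cells and 9 were higher and 0 lower in SUZ12 KO cells, with medians of 0.86 and 0.64 on the log2 scale against 0.04 and 0.01 over all genes. The share of all genes called higher was 12% and 14.7%. The filter worked by group, so a gene with few counts in controls could enter the test through the KO arm where it was high. The chains called include IL15RA and CNTFR in SUZ12 KO cells, which averaged 0.385 and 0.763 normalized CPM over experiment 2. They also include IL2RG in both arms, at 1.91. The counts and medians hold such genes and are descriptions. The number of chains called was 3 in EZH2 KO and 2 in SUZ12 KO cells without WT clone library 1, and 11 and 10 without STAG2 KO clone 5, and it was 5 in EZH2 KO cells with the WT clone as the only control. EPOR, the erythropoietin receptor, rose by 2.26 in EZH2 KO cells (SE 0.267, edgeR adjusted p = 0.000354). GBP2, an interferon-induced GTPase, rose by 3.98 in EZH2 KO cells (SE 0.912, edgeR adjusted p = 0.013) and by 4.18 in SUZ12 KO cells (SE 0.918, edgeR adjusted p = 0.00782), and its EZH2 KO call was lost without either WT clone library (edgeR adjusted p = 0.0666 and 0.0667). INSR, the insulin receptor, rose by 2.50 in SUZ12 KO cells (SE 0.484, edgeR adjusted p = 0.00384). Of 19 STAT-induced genes, 4 were higher in each arm, with 1 lower in EZH2 KO and 2 lower in SUZ12 KO cells, and of 6 STAT factors 2 were higher in each. Named after their values were seen, STAT5A, a STAT that acts downstream of growth hormone and prolactin and averaged 0.415 normalized CPM over experiment 2, rose by 4.63 (SE 1.04, edgeR adjusted p = 0.0116) and 5.37 (SE 1.01, edgeR adjusted p = 0.00326) and STAT3 by 0.47 and 0.39 (edgeR adjusted p = 0.01 and 0.0208). The summed blood cell markers were at 0.901 to 1.57 normalized CPM in EZH2 KO and 1.18 to 2.25 in SUZ12 KO cells against 0.51 to 0.776 in proficient cells of experiments 1 and 2, and their part was not tested.

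In STAG1 KO cells 1 of 19 receptor chains, IL13RA1, was higher (log2 fold change 1.68, SE 0.171, edgeR adjusted p = 0.0181), and 1 of 12 substrates and partners, IGF1R, was lower (-1.39, SE 0.204, edgeR adjusted p = 0.0268). Both calls were lost without either control (edgeR adjusted p from 0.106 to 0.255), and that of IGF1R without STAG1 KO library g2n5 (edgeR adjusted p = 0.0516). Against parental cells, 1 of 19 receptor chains was higher and 1 lower in the WT clone. The higher one was again IL13RA1 (0.711, SE 0.106, edgeR adjusted p = 0.0104). Without the parental library its STAG1 KO value was 1.461. Between the WT clone and parental cells 3 of 19 STAT-induced genes were lower in the clone, among them PSMB8 (-1.19, SE 0.209, edgeR adjusted p = 0.0202) and TAP1 (-1.05, SE 0.188, edgeR adjusted p = 0.0213), which act in antigen processing. Both calls were lost without any 1 of the 3 libraries of experiment 2 (edgeR adjusted p from 0.0503 to 0.0916), and that of TAP1 also without the WT clone library Rb (0.0553) or the parental library (0.0501) of experiment 1. After knockdown 1 of 14 receptor chains was higher and 3 lower, with LIFR at -0.89 (SE 0.119, limma adjusted p = 3.63e-06) and IL11RA at -1.001 (SE 0.148, limma adjusted p = 1.45e-05), and of 16 STAT-induced genes 2 were higher and 5 lower, with 3 called without siSTAG2 library 3. JAK1 fell by 0.46 after knockdown (SE 0.0582, limma adjusted p = 1.39e-06), named after its value was seen.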

How the data were processed

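RNA-seq was measured in Ewing sarcoma cell lines. Libraries were made by oligo-dT priming and template switching without keeping strand, and the authors aligned single-end reads of 86 nt to hg38 with TopHat2 2.0.0 and Bowtie 0.12.7 (2 mismatches, 5 multi-hits), with SAMtools 0.1.16; the counting program and annotation are not given in the sources used here. The deposited values are whole-number counts per gene symbol, except in the knockdown, where the deposited values are a signal for which the authors had scaled each library's reads by its own factor (whole reads came out for 100% of values within 0.05). With non-directional reads, overlapping genes on opposite strands cannot be told apart.

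Counts were fitted with edgeR 4.0.16 in R 4.3.3 (TMM, filterByExpr by group, quasi-likelihood test), adding a term for experiment where several were joined and fitting all libraries of experiment 2 together for the PRC2 arms, and the knockdown with limma 3.58.1 on log2(value + 1) for genes with a mean of at least 10. Calls used a threshold of 0.05 on p adjusted by Benjamini and Hochberg across the whole table. The fits were tested on simulated data. Where nothing says that libraries came from separate clones or cultures, p-values measure only the spread between libraries, which may be technical. The EZH2 KO and SUZ12 KO libraries are labelled as clones 1 to 3. Where an experiment has 2 WT clone libraries, they are labelled as replicates of 1 clone, and the fits counted each as a separate control. Totals are given with the results, and a gene with 3 or fewer counts was at the floor. Members and gene lists were chosen with earlier results of these data known. Named genes were the 8 members, the listed genes called with the 2 largest changes per comparison (mean of at least 5 CPM, or 50 normalized reads), genes overlapping a member, neighbours of SOCS1 within 1 Mb and the genes most and least like SOCS1. Alternatives were DESeq2 1.42.0, other scaling, filters, pseudocounts and controls, each library left out, and recovered reads. Levels per kb used MANE Select lengths of GENCODE 44, and sequences came from RefSeq tables, of which 5 of 8 members matched.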

Additional observations from a re-analysis of the deposited data

Results flagged for a closer look

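SOCS7 differed in direction between the isogenic lines. Without STAG2 its log2 difference was 0.31 in SK-N-MC cells (interval of the log2 ratio 0.21 to 0.41) and -0.23 in A4573 cells (-0.35 to -0.12). Of genes with at least 10 counts, 71.6% had a lower difference in SK-N-MC and 37.6% in A4573 cells, so neither value stood out. With 1 library per arm the difference between the lines was not tested, and the intervals cover counting error only. The spread of member levels was also examined in the 6 proficient and 5 STAG2 KO libraries of A673 cells, and 0 of 16 groups held a library beyond the limit for an outlier, where chance passes about 1 in 20 groups.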

How the results depend on the processing

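The log2 fold change of SOCS1 in STAG2 KO cells was negative under every alternative run, at -3.06 to -2.75 with each library left out. Leaving out libraries gave 1 to 3 members called in EZH2 KO cells and 2 to 4 in SUZ12 KO cells, where the main values were 2 and 4. With the WT clone as the only control 2 were called in SUZ12 KO cells. DESeq2 called 1 member in STAG1 KO cells, where edgeR called 0. In the knockdown the count was 0 to 1 with a library left out, and with the replicate block it was 1, SOCS7 (limma adjusted p = 0.0405). Same-numbered knockdown libraries did not deviate together (r = 0.0257, 0.0372 and 0.00402), so the numbers were not taken as pairs. Mock libraries 1 and 2 correlated best with the siSTAG2 library of their own number, and mock library 3 did not.

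Calls over all genes moved further. In STAG2 KO cells they numbered 1687, but 2621 with DESeq2, 3663 in experiment 1 alone and 494 in experiment 2 alone, and from 1053 without WT clone library 1 of experiment 2 to 4048 without STAG2 KO clone 5 of that experiment. In EZH2 KO cells they numbered 2377, and 1441 with the WT clone as the only control, with 1169 to 3885 when a library was left out, and in SUZ12 KO cells 3112, with 1874 to 4797. In STAG1 KO cells they numbered 757, and 1943 with DESeq2, with 0 to 1310 when a library was left out. Between the WT clone and parental cells they numbered 385, but 631 with DESeq2, 741 with no filter, 98 to 953 with a library left out and, in an alternative chosen after seeing the data, 185 when both WT clone libraries from experiment 1 were added together. EZH2 KO against SUZ12 KO gave 1, 22 with DESeq2 and 5 with no filter. The cause was not tested. No called result of a named gene changed sign under these alternatives. At 5 to 12 counts of SOCS1 per STAG2 KO library, and 1 to 9 reads after knockdown, counting error limits its level.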
